A study of Homo sapiens with 18 samples.

Results

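The genes described are 10 members of the Notch signalling pathway in RPE1 cells, a human line derived from retinal pigment epithelium and immortalised with telomerase. They are 3 receptors (NOTCH1, NOTCH2 and NOTCH3), 3 ligands (JAG1, JAG2 and DLL1) and 4 transcriptional targets (HES1, HES4, HEY1 and HEYL), found by their Ensembl identifiers among the 57773 genes of the deposited expression table. All 10 were listed. Reads were found for 9 of them, and HEYL was listed at 0 throughout.

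Notch receptors are transmembrane proteins that are activated when a ligand on a neighbouring cell binds them. Proteolysis then releases the intracellular domain, which enters the nucleus, binds the DNA-binding protein RBPJ and switches on genes of the HES and HEY families, which encode basic helix-loop-helix repressors. HES1 also represses its own transcription, and its level can be set by inputs other than Notch. In the developing eye the pathway helps to keep retinal progenitor cells undifferentiated.

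The study compared tetraploid (4N) with diploid (2N) clones of this line by sequencing of polyadenylated RNA. All 6 clones come from cells that were kept in 2.5 uM ZM447439, an inhibitor of Aurora kinases that blocks the division of the cell body, for 72 h. The survivors were grown for weeks and then seeded as single cells, so that the diploid clones carry the same drug history as the tetraploid ones, and no untreated cells were among the libraries analysed here. The groups are 4N-1 and 2N-1 (pair 1), 4N-2 and 2N-2 (pair 2), and 4N-3 and 2N-3 (pair 3), with the diploid clone of each pair taken from the same plates as its tetraploid partner. Both clones of pair 2 were additionally labelled with a Hoechst dye and sub-cloned. Cells were grown in DMEM with 10% fetal bovine serum. Each clone grew from 1 cell and had 3 libraries, named A, B and C and described as biological replicates. A test within a pair therefore compares 2 clones, not the ploidies in general, and its p-value measures the spread between libraries of a clone. The comparison of the 3 tetraploid with the 3 diploid clones is the one that bears on ploidy.

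The libraries held 37.2 to 54.4 M reads in genes (M, mega). Levels are given as reads per M, where the reads were recovered from the deposited RPKM values (reads per kilobase and M reads) and the library size is the one those values imply. In a principal component analysis, the 3 libraries of 4N-2 lay at 70.95 to 75.98 on the first component (47.6% of the variance), away from all others. Library A of 2N-3 lay alone on the second (18.0%). Genes averaging 5 reads per M or more were compared by exon length in that library. The 1244 with under 1.5 kb of exon stood at a median of 0.61 (log2) above the mean of B and C of the same clone. The 1493 with 10 kb or more stood at -0.57. Library C of 4N-3 also stood apart from its A and B for some genes. The pair 3 change of each member is therefore also given without these libraries. The markers of retinal pigment epithelium were only partly present: KRT8, KRT18, OTX2, MITF, LRAT and BEST1 reached 1 read per M, 6 of 14 markers, while RPE65, which isomerises retinoids in the visual cycle, averaged 0.480 or less in every clone. The summed level of 3 keratinocyte markers was at most 0.226 reads per M.

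The regulatory sequence of 3 targets is shown because RBPJ, the DNA-binding partner of the receptors, is known to recognise a short element in the promoters of HES genes. The 250 bases before the start site are taken from RefSeq (GRCh38.p14), 5′ to 3′ on the strand of the gene, and capitals mark the 6-letter core TGGGAA or its reverse complement TTCCCA. HES1 lies on the plus strand (chr3:194135898-194136147), and HES4 (chr1:1000098-1000347) and HEYL (chr1:39639644-39639893) on the minus strand.
HES1: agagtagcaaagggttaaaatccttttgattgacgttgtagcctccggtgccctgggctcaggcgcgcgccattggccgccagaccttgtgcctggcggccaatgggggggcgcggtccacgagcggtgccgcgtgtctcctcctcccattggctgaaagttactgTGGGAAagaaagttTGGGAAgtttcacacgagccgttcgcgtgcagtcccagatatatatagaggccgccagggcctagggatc
HES4: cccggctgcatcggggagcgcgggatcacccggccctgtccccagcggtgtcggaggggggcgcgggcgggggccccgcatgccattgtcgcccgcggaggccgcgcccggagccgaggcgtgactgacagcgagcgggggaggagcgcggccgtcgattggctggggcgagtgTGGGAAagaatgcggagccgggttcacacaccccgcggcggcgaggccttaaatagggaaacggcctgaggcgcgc
HEYL: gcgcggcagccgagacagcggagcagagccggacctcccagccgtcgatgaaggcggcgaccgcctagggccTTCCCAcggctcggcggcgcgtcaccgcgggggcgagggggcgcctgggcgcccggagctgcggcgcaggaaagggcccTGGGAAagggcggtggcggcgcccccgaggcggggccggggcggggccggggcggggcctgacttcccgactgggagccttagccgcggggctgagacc
HES1 holds 2 cores on its own strand, at -84 to -79 and -70 to -65 from the start. HES4 holds 1, at -76 to -71, and HEYL holds 2, of which that at -178 to -173 is on the opposite strand and that at -99 to -94 on its own. Of 35116 promoter windows of this length, 20.8% hold the core on either strand at least once and 2.9% hold it 2 or more times. The longer form GTGGGAA, which contains the core, occurs in each of the 3 windows 1 time and in 5.43% of all windows. The windows of NOTCH1, NOTCH2, NOTCH3, JAG1 and JAG2 hold none of these letters, and DLL1 and HEY1 were not matched in the table of 8 matched members. A match describes letters only. The 3 genes with matches differed in the clones: HES1 ranged 9.46-fold among tetraploid clones, HES4 passed no test within a pair, and HEYL had no reads.

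Levels of different genes are compared per kb of annotated exon. Whether reads in introns were counted is not given in the sources used here. If they were, such levels are too high, and more so in genes with long introns. The length behind the deposited values was 9.4 times the exon length for NOTCH2 and 1.26 times for HES1. NOTCH2 made up most of the receptor transcript, with 88.1% ± 1.23 of the summed level of the 3 receptors in 4N-2 and 94.2% ± 0.422 in 2N-2 (SD, n = 3), the lowest and the highest clone. NOTCH1 followed at 2.04 to 3.16 reads per M per kb of exon and NOTCH3 at 0.0172 to 0.0617. JAG1 was the main ligand, with 74.4% ± 0.827 of the ligand level in 4N-2 and 60.6% in 2N-3 at the extremes. Among the targets HES1 stood first in every clone, but its share of the target level varied most, with 92.8% in 4N-1, 58.1% in 4N-2 and 77.1% in 4N-3, against 86.4% in 2N-1, 89.0% in 2N-2 and 85.6% in 2N-3. HES1 had 28.0 ± 1.65 reads per M per kb of exon in 4N-1, near the 28.2 ± 0.487 of NOTCH2 in that clone, and 2.96 ± 0.932 in 4N-2.

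**Figure D1:**
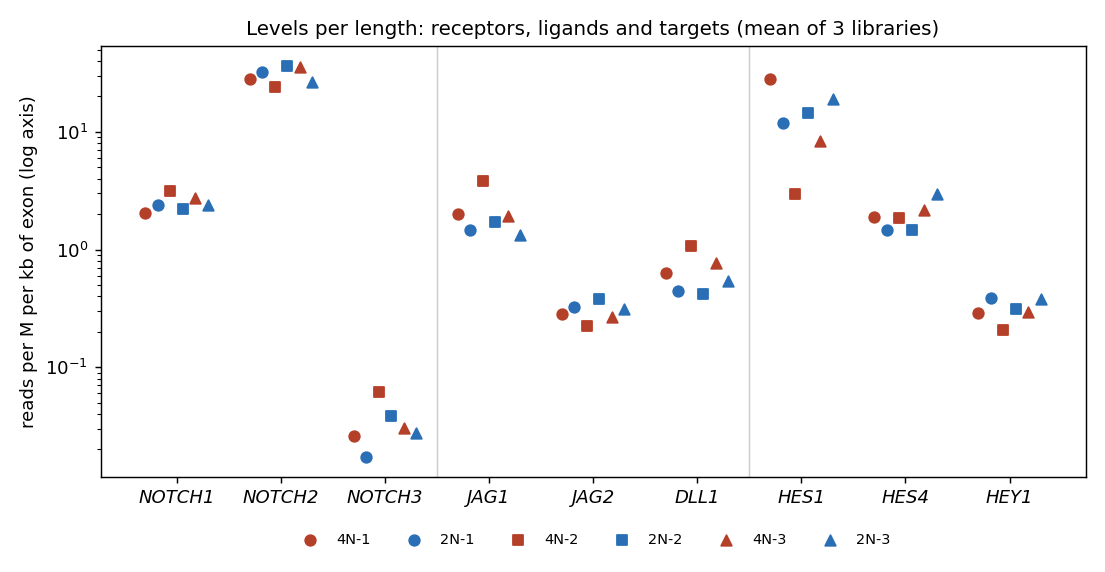
Mean level of the 9 genes with reads, in reads per M per kb of annotated exon on a log axis, with 1 point per clone (mean of 3 libraries; red, tetraploid; blue, diploid; shape, pair). NOTCH2 lies above NOTCH1 and NOTCH3 in each clone, and the red points of HES1 lie farther apart (2.96 to 28.0) than the blue ones.

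Within pairs, the change of each gene was tested with limma on log2(reads per M + 0.5) over 20015 genes, with Benjamini-Hochberg adjustment, and a gene passed at an adjusted p below 0.05. The pseudocount makes changes of low genes smaller than the ratio of their levels. In pair 1, 22.5% of all tested genes passed, and 2 of the 9 tested members did, JAG1 and HES1, both higher in 4N-1 (11.9% of all genes) and none lower (10.6% of all genes). In pair 2, 45.3% of genes passed and 8 of 9 members did. Of these, NOTCH1, NOTCH3, JAG1 and DLL1 were higher in 4N-2 (22.4% of all genes) and NOTCH2, JAG2, HES1 and HEY1 lower (22.9% of all genes). NOTCH3 reached the minimum level for testing only through the 3 libraries of 4N-2, so that it had to be higher there, and its call adds nothing to that count. In pair 3, 7.80% of genes passed and 2 of 9 members did, JAG1 higher (4.28% of all genes) and HES1 lower (3.52% of all genes) in 4N-3. The median log2 change of the tested members was 0.17 in pair 1, 0.25 in pair 2 and 0.05 in pair 3, beside 0.02, -0.01 and 0.02 over all genes.

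Across the 6 clones, with the pair as a block, none of the 20015 genes passed after adjustment in limma on log2 values. Of 23399 genes fitted in limma on log2 values of the summed reads of each clone, without voom weights, 0 passed. In the main fit, 888 genes (4.44%) had an unadjusted p below 0.05, of which 2 were members, JAG1 and DLL1. The clone means of 4 of 9 members did not overlap between the ploidies, compared with 12.4% of all genes: JAG1 and DLL1 were higher and JAG2 and HEY1 lower in each of the 3 tetraploid clones. A change that differs between pairs was found with the moderated F test of limma for 5 members (46.8% of all genes), and a difference among the 6 clones for 7 (59.9% of all genes). The 7 include NOTCH3, whose difference the minimum level fixed as in pair 2, and NOTCH2 (adjusted p = 0.0489), whose call was lost in 6 of 10 other settings and in 15 of 18 fits with 1 library left out. Without both 2N-3 A and 4N-3 C, all 9 tested members differed among the clones, with HES4 at an adjusted p of 0.00121 and JAG2 at 0.00184. These again include NOTCH3, and that fit tested 19892 genes. Up to 16511 genes passed this F test in the other settings, against 11993 in the main fit.

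**Figure D2:**
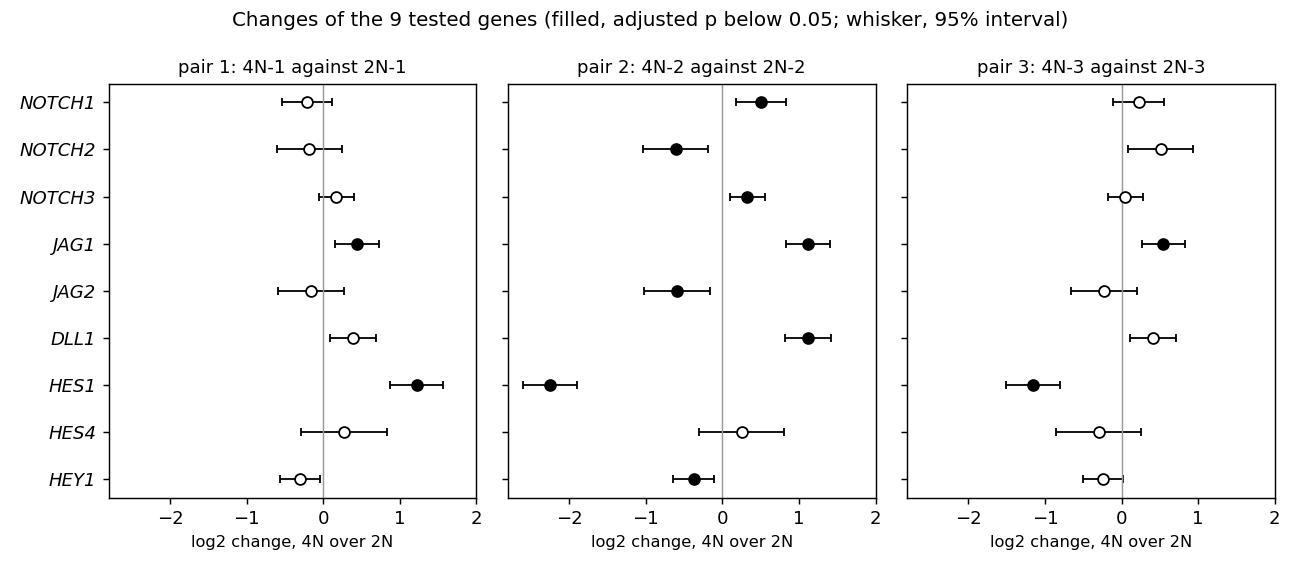
Log2 change of 4N over 2N for the 9 tested genes in each pair, with 95% intervals; filled points passed at an adjusted p below 0.05. JAG1 lies right of 0 and passes in each pair, while HES1 lies right of 0 in pair 1 (1.22) and left of it in pairs 2 (-2.25) and 3 (-1.16).

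NOTCH1 (ENSG00000148400, chr9:136494433-136545786, minus strand; all gene positions are of GRCh38 in GENCODE v29) encodes the founding human receptor. It had 21.0, 22.0 and 20.7 reads per M in 4N-1, against 21.8, 24.9 and 27.6 in 2N-1. In pair 2 the values were 34.4, 31.8 and 32.1 in 4N-2, against 21.7, 23.9 and 23.5 in 2N-2. In pair 3 they were 30.8, 32.0 and 22.7 in 4N-3, against 17.7, 26.9 and 29.5 in 2N-3. The libraries were apart only in pair 2, where NOTCH1 was higher in all of 4N-2; in pair 1 they overlapped at the lower end and in pair 3 over most of their range. NOTCH1 rose by 0.50 (SE 0.15) in 4N-2, with an adjusted p of 0.0135 in limma, a call lost without 2N-2 A (adjusted p = 0.0518). It did not pass in pair 1 (-0.21, adjusted p = 0.365) or in pair 3 (0.22, adjusted p = 0.375), and its pair 3 change was 0.00 without 2N-3 A, 0.37 without 4N-3 C and 0.15 without both. At the same size of change, NOTCH1 passed in pair 1 without both of these libraries (adjusted p = 0.0182) and in a fit of the libraries of that pair alone (0.0275). The order of clone means placed 4N-2 first and 4N-1 last, a span of 1.55-fold, and each clone overlapped the next.

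NOTCH2 (ENSG00000134250, chr1:119911553-120069626, minus strand) encodes the receptor with the most transcript here. Its reads are uncertain in part, since partial near-identical copies of the gene lie elsewhere on chromosome 1 and how reads were shared between them is not given in the sources used here. It had 478, 464 and 478 reads per M in 4N-1, against 509.7, 552 and 551 in 2N-1. In pair 2 there were 450.2, 422 and 347 in 4N-2, against 627, 642 and 580.2 in 2N-2. In pair 3 there were 601, 591 and 608 in 4N-3, against 251, 554 and 532 in 2N-3. The groups did not overlap in any pair, with 4N lower in pairs 1 and 2 and higher in pair 3, where A of 2N-3 lay far under its sister libraries. NOTCH2 has 16807 bases of exon, and A of 2N-3 was the library in which genes with long exons were low; the part of this in the value was not tested. NOTCH2 fell by 0.61 (SE 0.20) in 4N-2 (adjusted p = 0.0203 in limma). That call was lost without 2N-2 A (adjusted p = 0.0547), 2N-2 B (0.0611) or 4N-2 C (0.0931). In pair 1 the change was -0.18 (adjusted p = 0.574), which passed without both 2N-3 A and 4N-3 C (0.0416) and in a fit of the libraries of that pair alone (0.00820). In pair 3 it was 0.51 (adjusted p = 0.136), 0.14 without 2N-3 A (adjusted p = 0.367), 0.51 without 4N-3 C and 0.14 without both, whereas it passed at 0.71 without 2N-3 B (adjusted p = 0.0325) and at 0.69 without 2N-3 C (adjusted p = 0.0394). The highest clone, 2N-2, exceeded the lowest, 4N-2, by 1.52-fold; 4N-3 and 2N-1 stood apart in that order, as did 2N-1 and 4N-1, and the other neighbours overlapped.

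NOTCH3 (ENSG00000074181, chr19:15159038-15200981, minus strand), the receptor best known from vascular smooth muscle, was near the limit of measurement, with 247 reads over all 18 libraries. It had 0.308, 0.252 and 0.178 reads per M in 4N-1, against 0.228, 0.120 and 0.135 in 2N-1. The values were 0.558, 0.552 and 0.628 in 4N-2, against 0.342, 0.456 and 0.287 in 2N-2, and the libraries of that pair did not overlap. In pair 3 there were 0.317, 0.298 and 0.235 in 4N-3, against 0.194, 0.281 and 0.296 in 2N-3, which overlap. The change in 4N-2 was 0.33 (SE 0.11; adjusted p = 0.0175 in limma) on log2(reads per M + 0.5) and 0.68 in limma-voom, and the call was lost without 2N-2 A (adjusted p = 0.0541) or 2N-2 C (0.0838). The changes of 0.17 in pair 1 (adjusted p = 0.267) and 0.05 in pair 3 (adjusted p = 0.783) did not pass, and that of pair 3 was -0.01 without 2N-3 A, 0.10 without 4N-3 C and 0.03 without both. In the order of clones only 4N-2 and the next, 2N-2, were apart. The summed level of 7 smooth muscle and pericyte markers was 734 reads per M in 4N-1, against 236 in 2N-1, 319.8 in 4N-2, against 272 in 2N-2, and 443 in 4N-3, against 326 in 2N-3. The highest sum belonged to 4N-1 and the highest NOTCH3 to 4N-2. Within the list, ACTA2 and TAGLN rose most in 4N-1 (2.30 and 2.07), whereas RGS5, a pericyte marker, was highest in 4N-2, at 34.7 ± 2.71 reads per M, against 9.94 ± 0.203 in 2N-2 (1.75, adjusted p = 7.73e-09 in limma). PDGFRB of the same list went the other way in pair 2. It had 59.7 ± 10.4 reads per M in 4N-2, against 117 ± 18.0 in 2N-2 (-0.97, adjusted p = 0.00178 in limma). The part of these markers in the NOTCH3 values was not tested. In bulk RNA, fewer cells with a transcript and less of it per cell cannot be told apart.

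JAG1 (ENSG00000101384, chr20:10637684-10673999, minus strand) encodes a ligand of the Jagged type. It had 18.3, 19.3 and 18.2 reads per M in 4N-1, against 13.1, 14.1 and 13.5 in 2N-1. The values in pair 2 were 38.3, 37.7 and 29.7 in 4N-2, against 15.9, 16.2 and 15.5 in 2N-2. Those in pair 3 were 19.1, 17.4 and 17.7 in 4N-3, against 9.08, 13.7 and 14.6 in 2N-3. Each library of a tetraploid clone was above each library of all 3 diploid clones, and 4N-2 was above every other clone.

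JAG1 was the 1 member that passed in all 3 pairs in the same direction, as did 309 of 20015 genes (1.54%). The rise was 0.44 (SE 0.13) in 4N-1, 1.12 in 4N-2 and 0.55 in 4N-3, with adjusted p of 0.0248, 3.18e-06 and 0.0173 in limma. These are 1.36-fold, 2.17-fold and 1.46-fold. Of the 3 calls, that of pair 2 held in all alternatives that tested JAG1. The call of pair 1 was lost when any 1 of its 6 libraries was left out (adjusted p 0.0502 to 0.0858) and with total reads as library size (0.0785). The call of pair 3 was lost without 4N-3 A (adjusted p = 0.0824) and in a fit of the 6 libraries of that pair alone (0.422); without 2N-3 A the rise there was 0.34 (adjusted p = 0.0230), which is over 1.5 times smaller. It was 0.56 without 4N-3 C (adjusted p = 0.0254) and 0.36 without both (0.0110). The rises differed between pairs (adjusted p = 0.0152 in the F test of limma). Over the clones the difference was 0.70 (SE 0.19), higher in 3 of 3 pairs, with an unadjusted p of 0.0113 and an adjusted p of 0.890 in limma. In the order of clone means, 4N-1 and 4N-3 overlapped, as did 2N-1 and 2N-3, and the remaining neighbours were apart. JAG1 shares 79 exon bases with AL050403.2 on the opposite strand, which had 853 reads, against 14670 of JAG1.

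JAG2 (ENSG00000184916, chr14:105140981-105168824, minus strand), the second Jagged ligand, was lower than JAG1 per kb of exon in each clone. There were 1.97, 1.97 and 1.52 reads per M in 4N-1, against 2.12, 2.34 and 1.79 in 2N-1. The values were 1.57, 1.46 and 1.26 in 4N-2, against 2.48, 2.96 and 1.88 in 2N-2, which do not overlap. In pair 3 there were 1.35, 1.12 and 2.63 in 4N-3, against 1.99, 2.34 and 1.62 in 2N-3, where C of 4N-3 lay above every other library of the pair. JAG2 fell by 0.59 (SE 0.20) in 4N-2 (adjusted p = 0.0240 in limma). The call was lost with no filter on low values (adjusted p = 0.0610) and without 2N-2 A, 2N-2 B, 4N-2 B or 4N-2 C (adjusted p 0.0511 to 0.114). In pair 1 the change was -0.16 (adjusted p = 0.643). In pair 3 it was -0.23 (adjusted p = 0.490), -0.22 without 2N-3 A, -0.51 without 4N-3 C (adjusted p = 0.0583) and -0.50 without both (adjusted p = 0.0452). All neighbours in the order of clones overlapped, from 2N-2 at the top to 4N-2 at the bottom. JAG2 shares 469 exon bases on the same strand with AL512356.1, which had 10631 reads, against 1502 of JAG2, so that the split of reads between both is uncertain.

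DLL1 (ENSG00000198719, chr6:170282206-170306565, minus strand) encodes a ligand of the Delta type. It had 1.87, 1.95 and 2.27 reads per M in 4N-1, against 1.39, 1.61 and 1.27 in 2N-1. In 4N-2 the values were 3.80, 3.56 and 3.05, against 1.25, 1.70 and 1.08 in 2N-2. In 4N-3 they were 2.38, 2.09 and 3.03, against 1.83, 1.87 and 1.53 in 2N-3. The 3 tetraploid clones lay above their partners without overlap, and 4N-2 was above the others. The rise of 1.12 (SE 0.14) in 4N-2 passed (adjusted p = 6e-06 in limma) and held in all alternatives that tested DLL1. The differences of 0.40 in pair 1 (adjusted p = 0.0556) and 0.41 in pair 3 (adjusted p = 0.0924) did not pass. The pair 3 value was 0.44 without 2N-3 A, 0.29 without 4N-3 C and 0.31 without both. In pair 1 the adjusted p was 0.0313 without 2N-3 A, 0.0347 without 4N-3 C and 0.0418 without 2N-2 B, libraries outside that pair which enter through the shared estimate of spread. The change differed between pairs (adjusted p = 0.00959 in the F test of limma). Over the clones the difference was 0.64 (SE 0.22), with an unadjusted p of 0.0300 and an adjusted p of 0.993. Both JAG1 and DLL1 had their highest mean in 4N-2. The length behind the deposited values of DLL1 was 8268 bases, against a span of 24360 in GENCODE v29. The gene model that was counted thus differs from the one used here, and the level of DLL1 per kb of exon is uncertain.

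**Figure D3:**
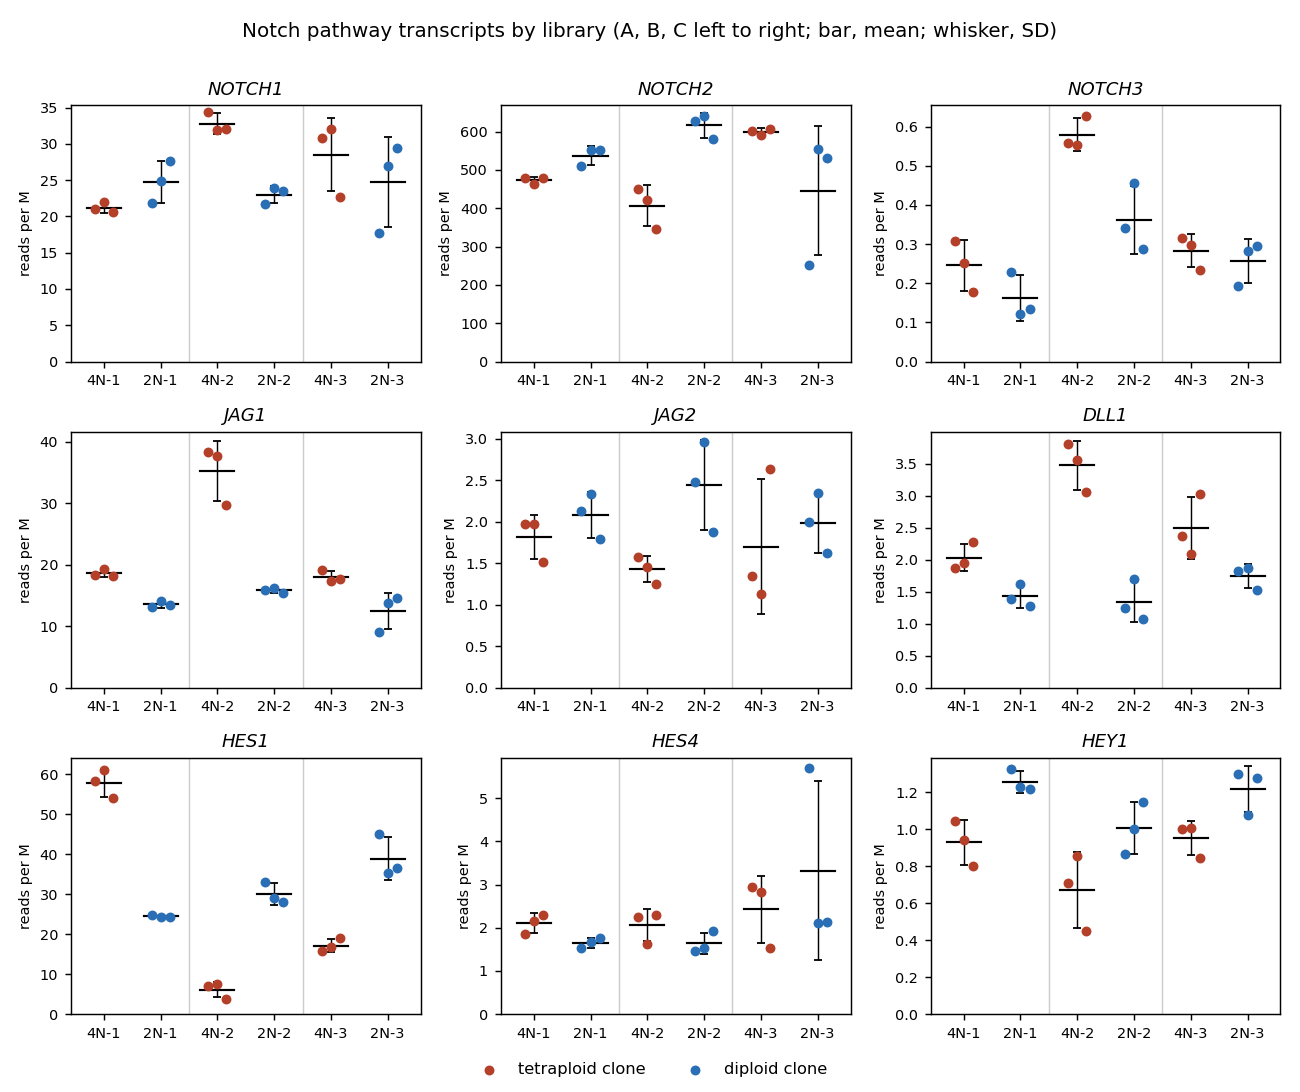
Reads per M of the 9 genes with reads in each of 18 libraries (points, A to C from left to right), with the mean and SD of each clone (red, tetraploid; blue, diploid; n = 3). In JAG1 and DLL1 the red points of each pair lie above the blue ones, and in HES1 they lie above in pair 1 (54.2 to 61.0) and below in pairs 2 (3.90 to 7.43) and 3 (15.7 to 19.0).

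HES1 (ENSG00000114315, chr3:194136145-194138732, plus strand) varied most among the members, and its direction was not shared by the pairs. There were 58.2, 61.0 and 54.2 reads per M in 4N-1, against 24.7, 24.3 and 24.4 in 2N-1. In pair 2 there were 6.99, 7.43 and 3.90 in 4N-2, against 33.2, 28.97 and 28.0 in 2N-2. In pair 3 there were 15.7, 16.8 and 19.0 in 4N-3, against 45.1, 35.2 and 36.5 in 2N-3. The groups were far apart in each pair. HES1 was higher in 4N-1 than in any other clone and lower in 4N-2 and 4N-3 than in any diploid clone.

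HES1 rose by 1.22 (SE 0.16) in 4N-1, a 2.33-fold change with an adjusted p of 4.67e-05 in limma. It fell by 2.25 in 4N-2 and by 1.16 in 4N-3, with adjusted p of 8.09e-09 and 1.62e-04, so that 2N-2 held 4.76-fold and 2N-3 2.23-fold the level of its tetraploid partner. Changes of 2-fold or more at an adjusted p below 0.05 were found in 3.08% of all genes in pair 1, 9.25% in pair 2 and 1.38% in pair 3. HES1 was the 1 member with such a change in pairs 1 and 3, and in pair 2 JAG1 and DLL1 had one too. The changes of HES1 differed between pairs (adjusted p = 1.52e-08 in the F test of limma). Its calls held in all alternatives run, with a range of 1.15 to 1.27 in pair 1, -2.41 to -1.98 in pair 2 and -1.23 to -1.05 in pair 3, where it was -1.05 without 2N-3 A, -1.23 without 4N-3 C and -1.12 without both. The clone means spanned 9.46-fold among tetraploid clones and 1.59-fold among diploid clones. In their order, 4N-1, 2N-3, 2N-2, 2N-1, 4N-3 and 4N-2, each neighbouring pair of clones was apart. By the range of clone means, HES1 ranked 151 among the 20015 genes, JAG1 1484 and DLL1 2886. Since the direction was not shared, the difference over the clones was -0.73 (SE 0.64) with an adjusted p of 0.993.

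Immediate early genes, which serum and handling of cells induce within minutes and hours, moved beside HES1. The summed level of 6 such genes was 217 reads per M in 4N-1, against 127 in 2N-1. The sum was 62.9 in 4N-2, against 158 in 2N-2, and 52.8 in 4N-3, against 173 in 2N-3, so that its order between the clones of each pair was that of HES1. The range of the sum over libraries was 216 to 218 in 4N-1, against 101 to 156 in 2N-1, 61.4 to 65.9 in 4N-2, against 127 to 177 in 2N-2, and 50.8 to 56.4 in 4N-3, against 142 to 216 in 2N-3. In pair 1, 4 of the 6 rose (11.9% of all genes) and none fell: FOSB by 2.65, ATF3 by 2.13, EGR1 by 1.02 and IER2 by 0.42. In pair 2, 5 fell (22.9% of all genes) and 1 rose, with EGR1 at -3.89 and FOS at -3.43, and ATF3 at 1.71. In pair 3, 5 fell (3.52% of all genes), with EGR1 at -4.17, and ATF3 did not pass (-0.14). The part of these genes, or of the state of the cultures at harvest, in the HES1 result was not tested.

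**Figure D4:**
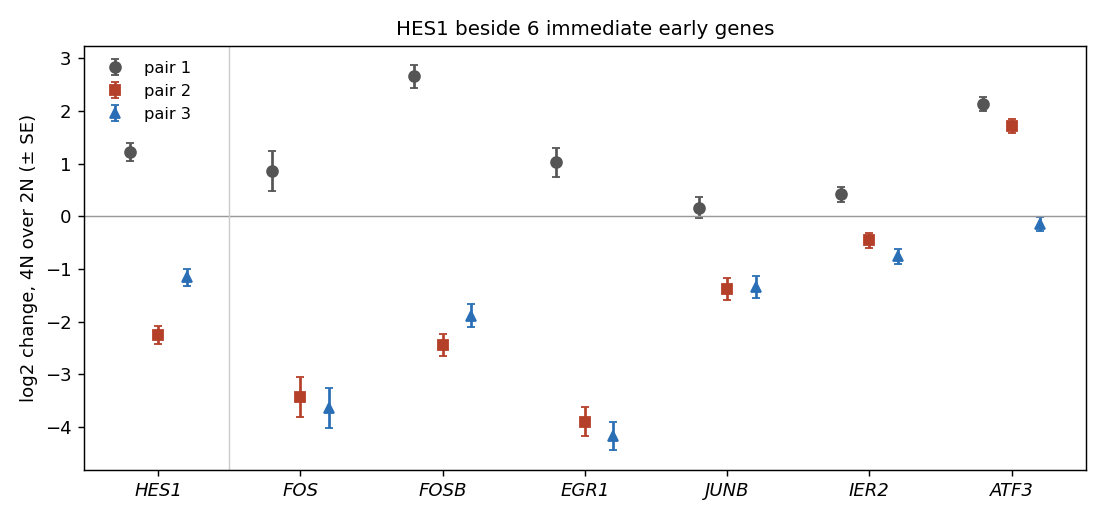
Log2 change of 4N over 2N (± SE from the shared fit) of HES1 and of 6 immediate early genes in the 3 pairs. HES1, FOS, FOSB, EGR1, JUNB and IER2 lie above 0 in pair 1 and below 0 in pairs 2 and 3 (FOS and JUNB did not pass in pair 1), and ATF3 lies above 0 in pair 2.

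HES4 (ENSG00000188290, chr1:998962-1000172, minus strand) encodes a HES relative that mice lack. It had 1.85, 2.16 and 2.30 reads per M in 4N-1, against 1.53, 1.66 and 1.76 in 2N-1. The values were 2.26, 1.63 and 2.29 in 4N-2, against 1.47, 1.53 and 1.92 in 2N-2. They were 2.93, 2.82 and 1.53 in 4N-3, against 5.70, 2.11 and 2.14 in 2N-3. A of 2N-3 was higher than every other library, and C of 4N-3 was the lowest of its pair. HES4 has 1118 bases of exon. Its average level lay under the 5 reads per M required of the short genes that were high in A of 2N-3. The part of its length in the value was not tested. Only the libraries of pair 1 did not overlap. No change passed in limma: 0.27 in pair 1 (adjusted p = 0.513), 0.25 in pair 2 (0.466) and -0.30 in pair 3 (0.486). The value of pair 3 had the opposite sign without 2N-3 A (0.12, adjusted p = 0.798) and without both doubtful libraries (0.36, adjusted p = 0.0750), and was -0.05 without 4N-3 C. All neighbours in the order of clones overlapped.

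HEY1 (ENSG00000164683, chromosome 8) encodes a repressor of the HEY family, known as a target in blood vessels and heart. There were 1.04, 0.944 and 0.803 reads per M in 4N-1, against 1.32, 1.23 and 1.22 in 2N-1. The values of pair 2 were 0.710, 0.853 and 0.449 in 4N-2, against 0.866, 1.00 and 1.15 in 2N-2. Those of pair 3 were 1.00, 1.01 and 0.845 in 4N-3, against 1.30, 1.08 and 1.28 in 2N-3. In each pair the tetraploid libraries lay below the diploid ones without overlap, by a small margin in pair 2. HEY1 fell by 0.37 (SE 0.13) in 4N-2 (adjusted p = 0.0217 in limma). That call was lost without 2N-2 B (adjusted p = 0.0535), 2N-2 C (0.0939) or 4N-2 C (0.146), and with no filter on low values (0.0675). The changes of -0.30 in pair 1 (adjusted p = 0.0996) and -0.24 in pair 3 (0.243) did not pass. The first passed in a fit of the libraries of pair 1 alone (adjusted p = 0.0469), and the pair 3 value was -0.21 without 2N-3 A, -0.19 without 4N-3 C and -0.15 without both. Over the clones the difference was -0.31 (SE 0.16; adjusted p = 0.993), lower in 3 of 3 pairs, and all neighbours in the order of clones overlapped. The change of HEY1 thus had the opposite sign to that of HES1 in pair 1 and the same sign in pairs 2 and 3.

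HEYL (ENSG00000163909, chr1:39624153-39639945, minus strand) had 0 reads in each of the 18 libraries. Its promoter window, which holds 2 cores, was placed by the RefSeq start and lies within this span. With 777 M reads in genes, a count of 0 allows a level of up to 0.00386 reads per M (3 reads over all libraries; counting error only).

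Non-overlapping libraries were common in these pairs. In pair 1, 55.3% of all genes had tetraploid libraries that did not overlap the diploid ones, and 6 of 9 members did (NOTCH2, JAG1, DLL1, HES1, HES4 and HEY1). In pair 2 these were 65.4% of genes and 8 members, all but HES4 and with NOTCH3 again fixed by the minimum level, and in pair 3 19.1% of genes and 5 members (NOTCH2, JAG1, DLL1, HES1 and HEY1).

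The rest of the pathway was examined in a list of 58 other genes, of which 50 were tested. In pair 1, 4 rose and 3 fell, beside 22.5% of all genes passing; in pair 2, 12 rose, of which MFNG and DLK2 reached the minimum level only through 4N-2, and 14 fell (45.3% of all genes); in pair 3, 2 rose and 3 fell (7.80%). Their median log2 change was 0.05, 0.01 and -0.03 in the 3 pairs. RBPJ itself, the DNA-binding partner, had 93.8 reads per M in 4N-1, against 84.4 in 2N-1, 91.8 in 4N-2, against 81.1 in 2N-2, and 83.6 in 4N-3, against 75.9 in 2N-3, and passed in no pair (adjusted p 0.178 to 0.350 in limma). Of the 8 genes of the nuclear complex, 5 fell in 4N-2 (22.9% of all genes) and none passed in the other pairs. They were the coactivators MAML1 (-0.61), MAML2 (-0.50) and MAML3 (-1.34) and the acetyltransferases EP300 (-0.81) and CREBBP (-0.46). MAML3 averaged 4.20 ± 1.17 reads per M in 4N-2 and 11.2 ± 0.973 in 2N-2 (SD, n = 3 each).

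Of the 50 tested genes outside the members, 1 fell by 2-fold or more in pair 1, beside 3.08% of all genes with such a change. In pair 2, 3 rose and 1 (MAML3) fell by 2-fold or more (9.25% of all genes). In pair 3, 0 did so (1.38% of all genes). NEURL1B, whose product ubiquitinates ligands, fell by 1.02 in 4N-1 and rose by 1.47 in 4N-2 (adjusted p 6.06e-06 and 1.57e-08 in limma). It averaged 2.11 ± 0.0470 reads per M in 4N-1 and 4.80 ± 0.168 in 2N-1, and 15.1 ± 1.16 in 4N-2 and 5.17 ± 0.620 in 2N-2. In both pairs it moved against HES1, whereas in pair 3 it did not pass (0.06, adjusted p = 0.745 in limma). MFNG, a glycosyltransferase that modifies receptors, averaged 2.32 ± 0.652 reads per M in 4N-2 and 0.289 ± 0.0291 in 2N-2 (log2 change 1.81). It was tested only because the libraries of 4N-2 reached the minimum level, so that it had to be higher there. DLL3, a ligand-like protein of the Golgi that inhibits Notch, rose by 1.36 in 4N-2 and by 0.53 in 4N-1. Its mean was 1.25 in 4N-2, against 0.184 in 2N-2, and 0.441 in 4N-1, against 0.152 in 2N-1. In pair 3 DLL3 did not pass (-0.10, adjusted p = 0.677 in limma), with 0.675 in 4N-3, against 0.763 in 2N-3. Both genes had their highest mean in 4N-2.

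Other surface proteins of the pathway were mostly scarce. NOTCH4 had 0.724 to 1.19 reads per M and passed in no pair. DNER, a transmembrane protein related to Delta, was the exception, with 263 ± 18.1 in 4N-2 and 143 ± 4.56 in 2N-2 (0.87, adjusted p = 2.18e-08), and 111 ± 7.16 in 4N-3 and 159 ± 1.70 in 2N-3 (-0.52, adjusted p = 8.16e-05, both in limma). DLL4 had 8 to 18 reads per clone and was not tested. DLK2 averaged 1.06 in 4N-2 and 0.216 to 0.402 in the other clones. DLK1, HES3 and HES5 were listed at 0, and HEY2 and NRARP lay under the minimum for testing, at clone means of up to 0.159 and 0.309 reads per M. HES2, at 0.501 to 0.729 reads per M, and HES6, at 1.88 to 3.42, passed in no pair. HES7 averaged 1.075 in 4N-2, against 0.545 in 2N-2 (0.61, adjusted p = 0.0011 in limma), where 22.4% of all genes rose. It did not pass in pairs 1 and 3.

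Genes whose levels followed those of a member most closely were named for the 3 members with the largest range of clone means, by Pearson's r of log2 values over the 18 libraries. The libraries of a clone are not independent, so that r mainly reflects the 6 clones, and it is a description with no test. For HES1 these were IER3 (r = 0.981), VMP1 (0.969), MN1 (0.964), NOX4 (0.962) and MAP3K10 (0.962). For JAG1 they included PGM5 (0.975), TNFRSF10B (0.974) and VEPH1 (0.973). DLL1 had lower values, with LPIN3 (0.936), SNX18P25 (0.924), CCL28 (0.922), VSIR (0.919) and SLC35F6 (0.917). Of these, SNX18P25 lay near the minimum for testing, with clone means of 0 to 0.668 reads per M, so that its r says little.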

How the data were processed

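RNA-seq was analysed in 18 libraries, 3 for each of 6 RPE1 clones. Per the labels, polyadenylated RNA was isolated on a Maxwell instrument and made into stranded TruSeq libraries. Per the submitters' processing notes, CASAVA 1.8.2, TopHat2, edgeR and hg19 were used; the counting step, its use of strand and the annotation are not given in the sources used here. The authors deposited 1 table of RPKM values for 57773 Ensembl genes. Within a gene these values are whole multiples of 1 read: 100% of values above 0 came out whole within 0.01 reads. Lengths equalled the genomic span in GENCODE v29 (GRCh38; names and positions are of that build, not of hg19) for 31114 genes and came from the steps alone for 9739. For 21566 of 24743 genes with over 50 reads and a span, the length was within 0.5% of the span, so introns count in the deposited RPKM, and reads per M or per kb of exon were used instead. The implied library sizes were 36.1 to 54.8 M.

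Genes with 0.5 reads per M or more in 3 or more libraries (20015) were fitted as log2(reads per M + 0.5) with a mean for each clone in limma 3.58.1 (trend in the spread; R 4.3.3). Tests were two-sided, with Benjamini-Hochberg adjustment over all tested genes and a threshold of 0.05. All 18 libraries share 1 estimate of the spread. Clone means were fitted with ploidy and pair (6 values). Moderated F tests compared the 3 pair changes and the 6 clones. On simulated data for pair 1 (18788 genes) 95% of 2-fold changes passed, and 0.0377% of unchanged genes. The simulated counts had the same dispersion in all genes and libraries. No library was like 2N-3 A and no gene changed in the other pairs, so these rates hold for that setting only. Alternatives were other library sizes, pseudocounts, filters, log2(RPKM + 0.5), limma-voom on recovered reads, a replicate block, leaving out each library, the pair alone, and leaving out 2N-3 A with 4N-3 C.

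The members and the gene lists were chosen with earlier results of these data known. All 10 members are named; of the other pathway genes, those that passed with 2-fold or more, those of the first and last class by level, and further ones (RBPJ, MAML1, MAML2, EP300, CREBBP) chosen after their values were seen. Likeness was ranked over all tested genes, and some of the genes so ranked are not reported here.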

Additional observations from a re-analysis of the deposited data

Results flagged for a closer look

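For 5 genes the change of the tetraploid over the diploid clone differed between the 3 pairs in the moderated F test of limma, with adjustment over all 20015 genes, of which 46.8% passed. HES1 differed with an adjusted p of 1.516e-08: it was higher in 4N-1 (1.22) and lower in 4N-2 (-2.25) and 4N-3 (-1.16). DLL1 (adjusted p = 0.009585) and JAG1 (0.01521) were higher in each tetraploid clone and by most in 4N-2. NOTCH2 (0.01156) was lower in 4N-1 and 4N-2 and higher in 4N-3, where the size of its change depends on library A of 2N-3 (0.14 without it). The adjusted p of NOTCH2 in this F test was 7.43e-05 without 2N-3 A and 2.86e-05 without both 2N-3 A and 4N-3 C. Those fits also change the shared spread. NOTCH1 (0.03562) was higher in 4N-2 and 4N-3 and lower in 4N-1, and its adjusted p reached 0.0961 when single libraries were left out.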

How the results depend on the processing

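HES1 in each pair kept direction and call under all alternatives run. JAG1 and DLL1 in pair 2 did so under all that tested them, which leaves out log2(RPKM + 0.5). Signs turned for HES4 in pair 3 (0.12 without 2N-3 A, 0.36 without both doubtful libraries, range with 1 library left out -0.51 to 0.12) and NOTCH3 in pair 3 (-0.011 without 2N-3 A, range -0.011 to 0.096), none past the threshold. Calls of single genes were lost in 12 other settings and 51 with 1 library left out, and gained in 10 and 6. On log2(RPKM + 0.5), which tests 9704 genes and 3 members, the members that passed were 1, 2 and 1 in pairs 1 to 3, 2 between pairs and 1 among clones, and the genes 2027, 3641, 330, 3780 and 4973. Members in pair 1 were 1 with total reads as library size (where 35% of calls were higher in 4N-1, against 52.69% with the implied sizes), 5 without both doubtful libraries and 6 with the pair's libraries alone; in pair 3 the last gave 1. With 2 reads per M as minimum, 4 members differed among clones. Genes passing in pair 1 were 9311 without both and 9278 alone, and in pair 3 4397 and 247; these change the shared spread. With 1 library left out, members were 1 to 3, 4 to 8 and 1 to 3 in the pairs, 4 to 5 between pairs and 4 to 7 among clones; genes were 2922 to 8038 (8038 without 2N-3 A), 7540 to 11920, 932 to 3007, 7975 to 12446 and 10196 to 15204. The call of NOTCH2 among clones was lost in 15 of these, up to an adjusted p of 0.110, and in 6 of 10 other settings (0.0512 to 0.110), and that of NOTCH1 between pairs in 11. Without 4N-3 C, JAG2 differed among clones (adjusted p = 0.00716), and without both doubtful libraries all 9 members did. Up to 16511 of all genes did so in the other settings. Except for the tested genes and the spread, the cause was not tested.

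Libraries with the same replicate letter were weakly alike in pairs 1 and 2 and not in pair 3. Same-letter correlations were 0.096, 0.015 and 0.151 in pair 1, 0.073, 0.240 and 0.356 in pair 2 and 0.063, -0.219 and -0.110 in pair 3. In the 3 pairs, 4, 5 and 0 of 6 libraries correlated best with their own letter. With a replicate block, 4049, 8731 and 1311 genes passed in the 3 pairs, and 6 members differed among clones, since NOTCH2 was lost (adjusted p = 0.0615); no other call of a member changed. Counts under 1 read per M (NOTCH3, HEY1) rest on few reads.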
